A study of Homo sapiens with 6 samples.

Results

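The lysosome is the compartment in which a cell digests proteins, glycans and lipids, and 45 genes of its machinery were followed here through a lymphoid-to-myeloid conversion with and without the architectural protein CTCF. The genes were listed by symbol and looked up in a table of 30017 genes. They comprise 11 cathepsins and other proteases, 20 glycosidases, sulfatases, lipid hydrolases and their cofactors, 5 membrane proteins, 6 proteins of the proton pump and the 3 MiT transcription factors *TFEB*, *TFE3* and *MITF*. All 45 symbols were found, on 20 chromosomes. Of these, 43 had enough counts for the test, which was applied to 14758 genes.

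RNA was sequenced from BLaER1-CTCF-mAID cells. This subclone descends from a human B cell leukemia line and has an auxin-inducible degron fused to CTCF. The cells also carry an exogenous *CEBPA*, and estradiol with the cytokines IL-3 and CSF-1 converts them into induced macrophages (iMacs). The 3 groups, with 2 libraries each, were untreated B cells (0 h), cells converted for 96 h (96 h control) and cells converted for 96 h with the auxin IAA added together with the conversion factors (96 h CTCF-depleted). Total RNA was depleted of ribosomal RNA, and the libraries held between 9273470 and 12718780 counts. Since every group carries the degron and no auxin-treated cells without it are among the libraries, effects of auxin and of CTCF loss cannot be told apart, and all values come from 1 subclone. With 2 libraries per group, the p-values measure the spread between these libraries. For each gene edgeR drew this spread strongly toward that of all genes (51.7 prior degrees of freedom), so that small p-values rest largely on shared spread. A permutation of 2 against 2 libraries could not give a two-sided p below 0.333.

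Most lysosomal enzymes are made in the endoplasmic reticulum, tagged with mannose 6-phosphate and carried to the lysosome by receptors for this tag, where the proton pump (the V-ATPase) provides the acid pH that they need. TFEB, TFE3 and MITF are related helix-loop-helix factors that bind E-box-like elements in promoters of lysosomal genes. The kinase mTORC1, which is recruited to the lysosomal surface by Rag GTPases, phosphorylates TFEB and TFE3 and keeps them in the cytoplasm when nutrients are plentiful. Macrophages take up and digest particles, microbes and dead cells and are known for a large lysosomal compartment. RNA levels do not report on where these factors reside or on enzyme activity.

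To show a sequence feature for which lysosomal genes are known, RefSeq promoters (GRCh38.p14, 250 bases before to 50 after the gene start) were searched on both strands for GTCACGTGAC, the palindromic core of the element bound by TFEB and TFE3, for its shorter form TCACGTG, and for TCATGTG, a form known from MITF targets. GTCACGTGAC contains TCACGTG. A promoter was given for 30 of the 45 genes. GTCACGTGAC was found in 2 of the 30 promoters (6.67%), those of *GAA* and *MCOLN1*, and in 0.421% of the promoters of 27305 genes. The shorter TCACGTG was found in 8 of 30 (26.7%; *CTSA*, *CTSD*, *GAA*, *NEU1*, *ARSB*, *LAMP1*, *MCOLN1* and *ATP6V0D1*), against 4.49% of all genes, and TCATGTG in 4 of 30 (13.3%; *CTSA*, *TPP1*, *GRN* and *CD63*), against 3.59%. The 27305 genes include genes that were not tested here, and no share among tested genes was computed. The 8 windows shown here hold both genes with the long element and the closely spaced or repeated matches, with 1 enzyme (*CTSD*) and 1 pump subunit (*ATP6V0D1*) that have a single stretch of matched bases. Matches on opposite strands can overlap in a stretch. Capitals mark the matched bases on either strand, with 15 bases shown on each side. The windows are on the plus strand for *GAA* (chr17:80101488-80101572), *MCOLN1* (chr19:7522567-7522632), *CTSA* (chr20:45891277-45891344), *LAMP1* (chr13:113297031-113297259) and *GRN* (chr17:44345065-44345117), and on the minus strand for *TPP1* (chr11:6619409-6619458), *CTSD* (chr11:1763953-1763989) and *ATP6V0D1* (chr16:67481195-67481232).
GAA: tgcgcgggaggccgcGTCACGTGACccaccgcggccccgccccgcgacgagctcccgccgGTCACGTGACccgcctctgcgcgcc
MCOLN1: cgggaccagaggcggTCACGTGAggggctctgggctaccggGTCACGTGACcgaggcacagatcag
CTSA: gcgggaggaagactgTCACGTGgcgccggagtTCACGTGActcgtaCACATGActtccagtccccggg
LAMP1: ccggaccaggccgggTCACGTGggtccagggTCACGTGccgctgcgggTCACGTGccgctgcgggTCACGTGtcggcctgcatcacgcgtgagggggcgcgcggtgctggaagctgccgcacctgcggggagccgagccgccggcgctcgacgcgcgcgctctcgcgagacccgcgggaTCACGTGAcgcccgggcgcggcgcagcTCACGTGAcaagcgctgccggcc
GRN: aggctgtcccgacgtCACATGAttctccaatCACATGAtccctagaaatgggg
TPP1: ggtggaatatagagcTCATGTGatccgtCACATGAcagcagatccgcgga
CTSD: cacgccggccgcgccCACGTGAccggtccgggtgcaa
ATP6V0D1: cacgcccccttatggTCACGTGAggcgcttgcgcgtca
The *LAMP1* window held 6 separate stretches of matched bases, the most of the 11 genes with a match, and the *CTSA* window held 3. Of the 6 genes that were called upon CTCF depletion, *CTSH*, *FUCA1*, *LIPA* and *NPC1* had a promoter entry, and 0 of these 4 windows held a match. *CTSB* and *LGMN* had no entry. Only 11 of all 30 promoters held a match, so that a count of 0 among 4 does not set these genes apart. A match is a description of the letters and not a bound site, and no match says only that these letters are not in the window.

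The identity of the cells was checked first. The summed level of 12 B cell markers was 3571 to 3601 counts per 1000000 after TMM scaling (CPM) at 0 h, 434 to 442 CPM in the 96 h control and 444 to 457 CPM in the CTCF-depleted libraries. The sum of 10 macrophage markers was 73.4 to 82.1 CPM at 0 h, 5339 to 5596 CPM in the control and 5139 to 5183 CPM upon depletion, most of it *LYZ*. All 12 B cell markers fell and all 10 macrophage markers rose in conversion. The sums hide changes of single markers upon depletion, where 3 B cell markers fell (*RAG1* by 1.94, *IGLL1* by 1.18 and *VPREB1* by 0.89 on the log2 scale) and *CD22* rose from 34.8 to 96.6 CPM, while the macrophage marker *ITGAM* rose (1.15) and *MRC1* fell (−1.33). Of the markers of other cells, 6 erythroid markers summed to at most 0.206 CPM. The T cell list summed to at most 5.28 CPM in any library, with *CD3D* and *CD3G* at 0 in all 6 and nearly all of the sum in *CD2*, which rose in conversion from 0 to 3.52 CPM and was at 5.03 CPM upon depletion. The osteoclast list summed to at most 9.09 CPM. In it *CALCR* and *OCSTAMP* were at 0 at 0 h and in the control, *DCSTAMP* rose from 0 to 1.03 CPM in conversion, and *NFATC1* rose in conversion (0.92) and fell upon depletion (−1.09). The neutrophil list, of which granule genes and *CSF3R* are also found in young myeloid cells, summed to at most 0.90 CPM at 0 h, 93.4 to 96.7 CPM in the control and 72.2 to 78.1 CPM upon depletion, with *FCGR3B* at 0 in all 6 libraries. The part of such markers in the results was not tested. *CTCF* mRNA was at 222 ± 11.9, 177 ± 5.03 and 189.9 ± 1.40 CPM (mean ± SD, n = 2), and it does not check the depletion, because the degron removes the protein. In bulk RNA, fewer cells of a type and less RNA per cell cannot be told apart.

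During conversion with CTCF, most of the lysosomal genes rose, and cathepsins B and D, the saposin precursor *PSAP* and the acid sphingomyelinase *SMPD1* rose by more than 10-fold. A call required an edgeR adjusted p below 0.01 together with a log2 fold change of more than 0.6 in either direction. Of the 43 tested genes, 36 were higher and 0 were lower in the 96 h control than at 0 h, while 25.4% of all tested genes were called higher and 22.9% lower (48.3% together). The 7 genes not called were *CTSC*, *GUSB*, *GAA*, *NEU1*, *NPC1*, *ATP6V1H* and *TFEB*, and 42 of the 43 passed the adjusted p alone, against 68.2% of all tested genes. The median log2 fold change was 1.19, against 0.02 for all tested genes, with a range from 0.05 (*CTSC*) to 4.35 (*CTSB*). In all 43 tested genes both control libraries lay above both 0 h libraries, which 43.9% of all tested genes did (86.7% were separate in either direction), so that the count of 0 lower genes also holds at an unadjusted p below 0.05 and with DESeq2. As a share of all counts, the 45 genes took 0.183% ± 0.00448 at 0 h, 0.677% ± 0.00141 in the control and 0.648% ± 0.0122 upon CTCF depletion (mean ± SD, n = 2).

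**Figure D1:**
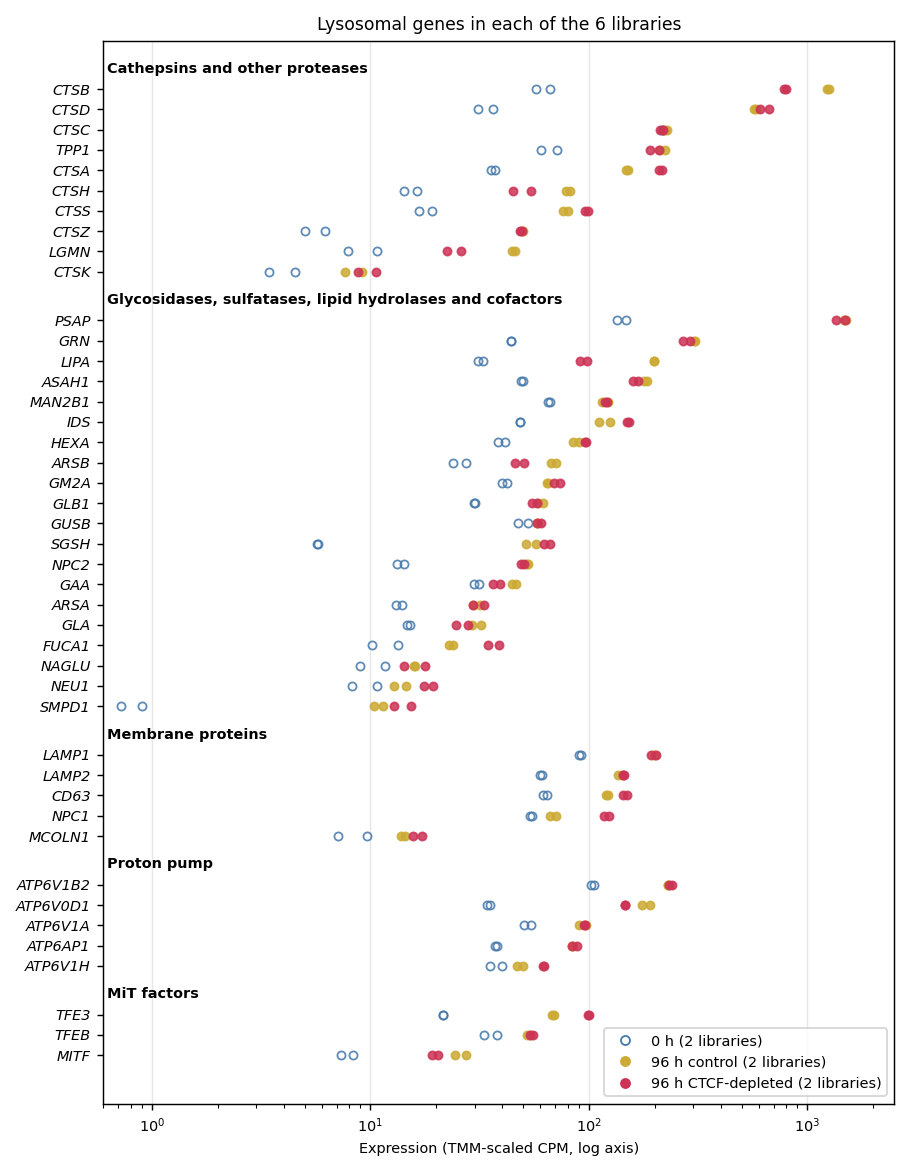
Expression of the 43 tested genes in each of the 6 libraries, in TMM-scaled CPM on a log axis, grouped by role; each point is 1 library. The 96 h control points lie to the right of the 0 h points for every gene, by most for *CTSB*, and the CTCF-depleted points lie near the control points for most genes but farther from them for *LIPA*, *LGMN* and *NPC1*.

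Proteases had the highest median of the 4 groups of lysosomal proteins (2.22 on the log2 scale). Of the 10 tested members 9 were higher, against 25.4% of all tested genes. *CTSB* encodes the cysteine protease cathepsin B (chr8:11842524-11869533, minus strand, hg38). Its level was 66.0 and 57.1 CPM at 0 h, 1234 and 1260.5 CPM in the 96 h control libraries and 797 and 782 CPM in the CTCF-depleted libraries. The groups were fully separate, and *CTSB* rose 20.4-fold in the control (log2 fold change 4.35, SE 0.06, edgeR adjusted p = 4.29e-54).

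*CTSD*, the aspartic protease cathepsin D (chr11:1752752-1764573, minus strand), was at 36.2 and 31.1 CPM at 0 h, 583 and 569 CPM in the 96 h control libraries and 663 and 606 CPM in the CTCF-depleted libraries. Both 96 h groups lay far above 0 h, a 17.3-fold rise in the control (log2 fold change 4.11, SE 0.06, edgeR adjusted p = 3.38e-51). Other proteases that rose by a log2 fold change above 2 were *CTSZ* (3.16), a carboxypeptidase, the aminopeptidase *CTSH* (2.41), the asparaginyl endopeptidase *LGMN* (2.31), *CTSS* (2.14), which processes the invariant chain of MHC class II, and *CTSA* (2.04), which also protects neuraminidase and beta-galactosidase. *TPP1*, a tripeptidyl peptidase, rose by 1.74, and *CTSK*, the collagen-degrading cathepsin of osteoclasts, rose by 1.10 from a low level.

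*CTSC*, dipeptidyl peptidase I, which activates granule serine proteases, was the exception among the proteases. Its level was 217 and 217 CPM at 0 h, 223 and 227 CPM in the 96 h control libraries and 218 and 211 CPM in the CTCF-depleted libraries, so that all 6 libraries lay close together (log2 fold change 0.05, SE 0.05, edgeR adjusted p = 0.3). *CTSL*, the endopeptidase cathepsin L, had 0 counts in all 6 libraries, which allows up to 0.309 CPM in the shallowest library for counting error only. In the table, 8451 of 30017 genes were at 0 in all libraries, 3327 of them protein-coding in GENCODE 44. Whether the counting left out reads of *CTSL* was not tested, so that its 0 is not a measured absence of expression.

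Among enzymes and cofactors, 17 of 20 rose (median 1.16 on the log2 scale), against 25.4% of all tested genes. Cofactors and lipid hydrolases had higher medians than glycosidases. *PSAP*, the precursor of the saposins that present sphingolipids to their hydrolases (chr10:71816298-71851251, minus strand), was at 148 and 135 CPM at 0 h, 1474 and 1494 CPM in the 96 h control libraries and 1490.4 and 1356 CPM in the CTCF-depleted libraries. The 96 h libraries of both groups overlapped, and the control lay 10.5-fold above 0 h (log2 fold change 3.40, SE 0.06, edgeR adjusted p = 7.62e-50). Progranulin, encoded by *GRN* (chr17:44345246-44353106, plus strand), was at 43.9 and 43.9 CPM at 0 h, 306 and 301 CPM in the 96 h control libraries and 290.4 and 269 CPM in the CTCF-depleted libraries. Both 96 h pairs lay far above 0 h, the depleted pair somewhat below the control (log2 fold change 2.79, SE 0.06, edgeR adjusted p = 1.82e-44 for control against 0 h).

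The acid sphingomyelinase *SMPD1* (chr11:6390440-6394998, plus strand) had the largest log2 fold change of this group but a low level, with 0.722 and 0.90 CPM at 0 h, 10.4 and 11.4 CPM in the 96 h control libraries and 12.8 and 15.4 CPM in the CTCF-depleted libraries. Its 0 h libraries were the lowest of any tested gene of the 45, and it rose in the control (log2 fold change 3.71, SE 0.27, edgeR adjusted p = 1.85e-18). All 3 lipid hydrolases rose, with a median log2 fold change of 2.64, and so did the 4 cofactors and carriers (median 2.36), which include the cholesterol-binding *NPC2* (1.93) and the ganglioside activator *GM2A* (0.65). The 4 sulfatases rose with a median of 1.35, led by the heparan sulfatase *SGSH* (3.25). Of the 9 glycosidases, 6 rose, against 25.4% of all tested genes. Their median was 0.85, with a highest value of 1.13 for *HEXA*, a subunit of beta-hexosaminidase. *GAA*, whose promoter holds 2 copies of GTCACGTGAC, was just short of the fold threshold (log2 fold change 0.58, SE 0.08, edgeR adjusted p = 1.29e-08). *MCOLN1*, the other gene with this element, was called higher (0.72). The 3 glycosidases that missed the fold threshold were the acid alpha-glucosidase *GAA* (0.58), the sialidase *NEU1* (0.55) and the beta-glucuronidase *GUSB* (0.23).

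For membrane proteins the median was lower, at 0.94 on the log2 scale, and 4 of 5 were called higher, against 25.4% of all tested genes. *LAMP1*, an abundant glycoprotein of the lysosomal membrane (chr13:113297239-113323672, plus strand), was at 91.6 and 89.9 CPM at 0 h, 201 and 199 CPM in the 96 h control libraries and 202 and 192 CPM in the CTCF-depleted libraries. *LAMP2*, its homolog with a role in chaperone-mediated autophagy (chrX:120426148-120469365, minus strand), was at 59.6 and 60.9 CPM at 0 h, 135 and 142 CPM in the 96 h control libraries and 144 and 144 CPM in the CTCF-depleted libraries. In both genes, 96 h libraries lay above 0 h libraries (log2 fold change 1.14, SE 0.06, edgeR adjusted p = 2e-26 for *LAMP1* and 1.20 for *LAMP2*). The tetraspanin *CD63* (0.94) and the calcium channel *MCOLN1* (0.72) also rose, and *NPC1*, which exports cholesterol, did not reach the threshold (0.33).

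In the proton pump, 4 of 5 tested members rose, with a median of 1.16, against 25.4% of all tested genes called higher. These 5 do not stand for the whole pump: of 14 other tested subunits, 5 were called higher and 1 lower, with a median of 0.42. *ATP6V0D1*, a subunit of the membrane sector (chr16:67438014-67481181, minus strand), was at 35.2 and 34.2 CPM at 0 h, 175 and 191 CPM in the 96 h control libraries and 146 and 146 CPM in the CTCF-depleted libraries. The libraries of the 3 groups did not overlap, with the control highest (log2 fold change 2.40, SE 0.07, edgeR adjusted p = 7.77e-38). *ATP6V1B2*, a subunit of the catalytic head (chr8:20197381-20226819, plus strand), was at 102 and 105 CPM at 0 h, 231 and 231 CPM in the 96 h control libraries and 239 and 233 CPM in the CTCF-depleted libraries. *ATP6AP1*, an accessory protein of the pump (chrX:154428633-154436516, plus strand), was at 37.3 and 37.9 CPM at 0 h, 84.4 and 83.7 CPM in the 96 h control libraries and 83.7 and 88.2 CPM in the CTCF-depleted libraries. For these 2 proteins the 96 h libraries lay above 0 h by near-equal amounts (1.16 and 1.16). *ATP6V1A* rose by 0.84, *ATP6V1H* was not called (0.38), and *ATP6V0D2*, a subunit isoform known from osteoclasts and macrophages, was listed at 0 in all 6 libraries, with the same limit as *CTSL*.

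**Figure D2:**
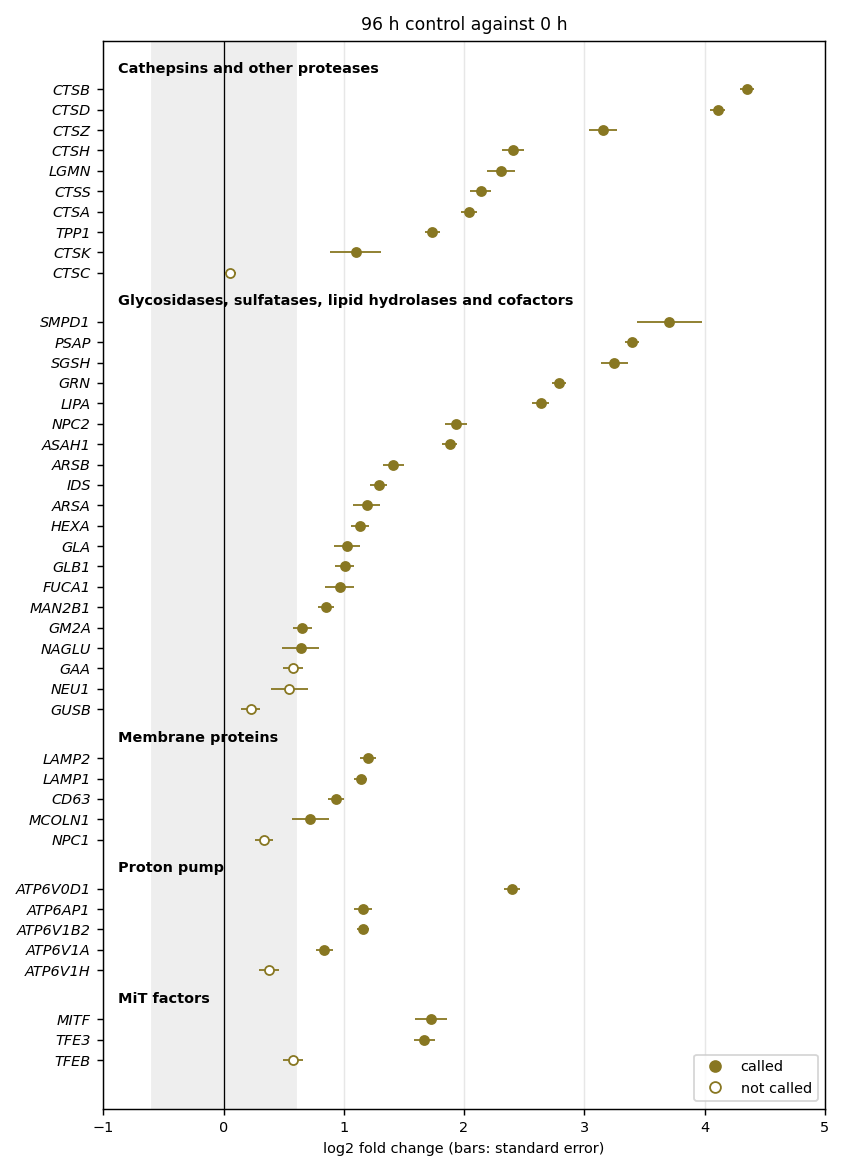
Log2 fold change of the 43 tested genes in the 96 h control against 0 h, with bars for the standard error; filled points were called and the grey band marks an absolute log2 fold change of at most 0.6. All points lie right of 0, and 7 open points lie in the band.

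Per length, these genes differed widely in level. Levels per kilobase of the canonical transcript (CPM per kb, mean ± SD, n = 2) were highest in the 96 h control for *PSAP* (540.0 ± 5.18), followed by *CTSB* (334 ± 4.93), *CTSD* (280.2 ± 4.90) and *GRN* (142 ± 1.42). The next genes, *CTSC* (120.5 ± 1.60), *CD63* (118 ± 1.46) and *ATP6V0D1* (112 ± 7.0), lay close together, and in this order *CD63* differed from *CTSC*, and *ATP6V0D1* from *CD63*, by less than the sum of both SDs. At 0 h the order was different, with *CTSC* (116 ± 0.223) first, then *CD63* (61.6 ± 2.14) and *PSAP* (51.5 ± 3.5). Upon CTCF depletion, *CTSD* (309 ± 19.7) lay above *CTSB* (211 ± 2.78), and *PSAP* was still first (518 ± 34.5). *PSAP*, *CTSB* and *CTSD* together held 13.0% and 14.0% of the counts of the 45 genes at 0 h, 47.0% and 47.2% in the control and 42.7% and 44.1% upon depletion.

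The next comparison asked what IAA, and with it CTCF depletion, did to these genes in converted cells. Of the 43 tested genes, 2 were higher (*FUCA1* and *NPC1*) and 4 were lower (*CTSB*, *CTSH*, *LGMN* and *LIPA*) in CTCF-depleted than in control iMacs, and 37 were not called. The share called, 14.0%, was near the background of 12.4% of all tested genes, of which 5.41% were higher and 7.03% lower. The median log2 fold change was 0.03, against −0.03 for all tested genes, and the median absolute value was 0.198, against 0.233. With the adjusted p alone, 9 genes were higher and 8 lower, together 17 of 43, against 29.4% of all tested genes. In 33 genes the libraries of the groups did not overlap, against 67.9% of all tested genes. Of these, 18 were higher in the depleted group (30.1% of all tested genes) and 15 lower (37.8%).

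*LIPA*, the acid lipase that splits cholesteryl esters and triglycerides (chr10:89213569-89414557, minus strand), fell most. Its level was 31.0 and 32.7 CPM at 0 h, 199 and 199 CPM in the 96 h control libraries and 98.0 and 90.6 CPM in the CTCF-depleted libraries. No libraries of different groups overlapped, and the depleted libraries lay between 0 h and control (log2 fold change −1.07, SE 0.06, edgeR adjusted p = 5.05e-22). The control was 2.11-fold above the depleted group, and against 0 h the depleted group was still 2.95-fold higher.

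Legumain, encoded by *LGMN* (chr14:92703807-92748679, minus strand), was at 10.7 and 7.88 CPM at 0 h, 44.4 and 46.0 CPM in the 96 h control libraries and 22.3 and 25.9 CPM in the CTCF-depleted libraries. *LGMN* fell upon depletion (log2 fold change −0.91, SE 0.10, edgeR adjusted p = 3.45e-11), again to between the other groups. *CTSH* (chr15:78921058-78949574, minus strand) was at 16.3 and 14.2 CPM at 0 h, 81.6 and 78.7 CPM in the 96 h control libraries and 54.2 and 45 CPM in the CTCF-depleted libraries. It also fell (log2 fold change −0.69, SE 0.08, edgeR adjusted p = 1.53e-10), but the depleted libraries differed from each other, and without CTCF-depleted replicate 2 the log2 fold change was −0.54, short of the fold threshold.

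*CTSB* fell from the highest protease level to 797 and 782 CPM (log2 fold change −0.66, SE 0.05, edgeR adjusted p = 3.15e-18). The control was 1.58-fold above the depleted group, and in every library of that group *CTSB* remained above the 0 h libraries, 12.9-fold by group (log2 fold change 3.69, SE 0.06, edgeR adjusted p = 1.09e-50). Of the 10 tested proteases 3 fell and 0 rose (0 also with DESeq2), against 7.03% and 5.41% of all tested genes. With the adjusted p alone 3 were lower and 2 higher, against 29.4% of all tested genes in either direction. At an unadjusted p below 0.05, 3 were higher, a count without a share of all tested genes beside it. The other 7 ranged from −0.13 (*TPP1*) to 0.51 (*CTSA*).

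*NPC1*, the transporter that passes cholesterol out of the lysosome (chr18:23506184-23586506, minus strand), was at 54.9 and 53.6 CPM at 0 h, 70.4 and 66.1 CPM in the 96 h control libraries and 124 and 117 CPM in the CTCF-depleted libraries. The depleted libraries were highest and apart from the rest (log2 fold change 0.82, SE 0.07, edgeR adjusted p = 5.24e-15). In conversion with CTCF its log2 fold change was 0.33 (SE 0.07). *FUCA1*, the alpha-fucosidase (chr1:23845077-23868290, minus strand), was at 10.2 and 13.4 CPM at 0 h, 23.8 and 22.9 CPM in the 96 h control libraries and 38.6 and 34.4 CPM in the CTCF-depleted libraries. It rose in both steps, during conversion (log2 fold change 0.96, SE 0.12, edgeR adjusted p = 4.95e-10) and upon depletion (log2 fold change 0.64, SE 0.10, edgeR adjusted p = 8.31e-07). Without CTCF-depleted replicate 1 the second log2 fold change was 0.596, short of the fold threshold.

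**Figure D3:**
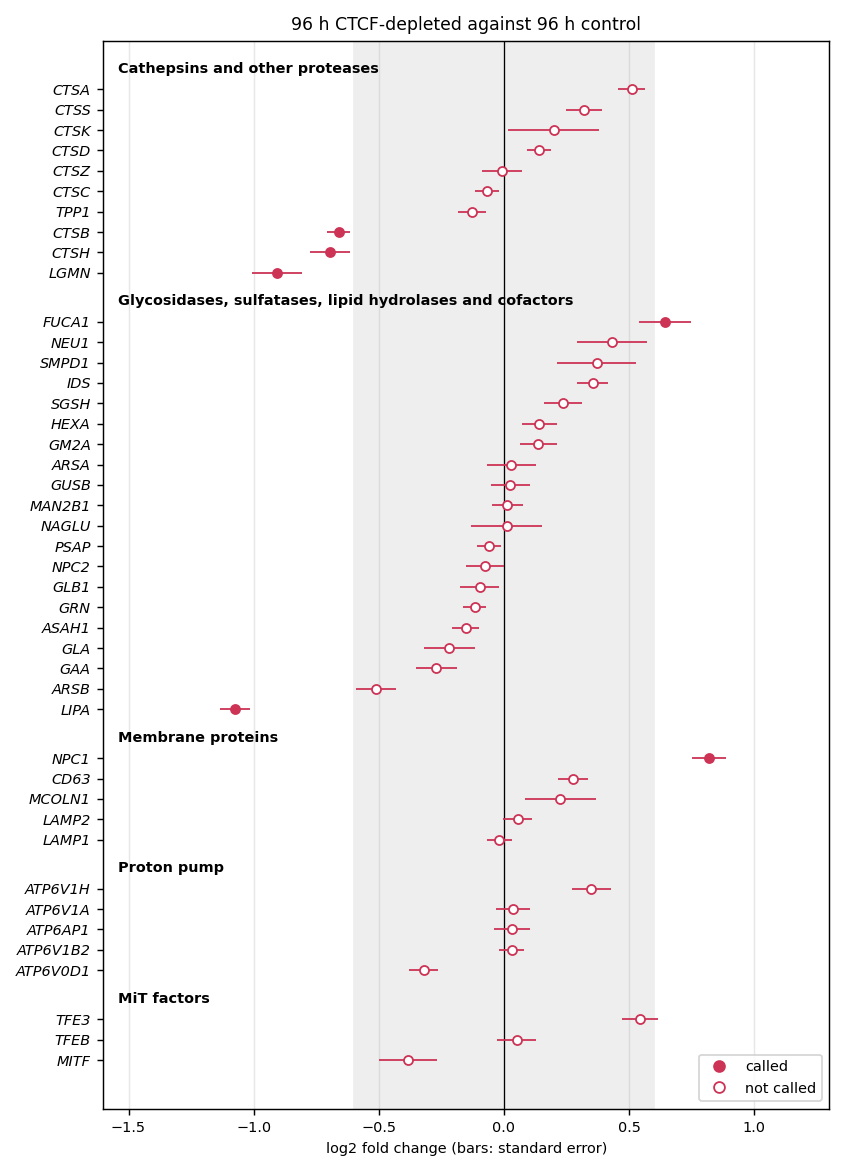
Log2 fold change of the 43 tested genes in 96 h CTCF-depleted against 96 h control cells, with bars for the standard error; filled points were called and the grey band marks an absolute log2 fold change of at most 0.6. The 6 filled points are *NPC1* and *FUCA1* to the right and *CTSB*, *CTSH*, *LGMN* and *LIPA* to the left, and the other points lie in the band.

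Several genes passed the adjusted p but not the fold threshold. The largest such values were 0.54 for *TFE3* (edgeR adjusted p = 5.79e-09), 0.51 for *CTSA* (edgeR adjusted p = 1.71e-11) and −0.51 for the sulfatase *ARSB* (edgeR adjusted p = 2.9e-07). Smaller values at an adjusted p below 0.01 were those of *MITF*, *IDS*, *ATP6V1H*, *ATP6V0D1*, *CTSS*, *CD63*, *GAA* and *SGSH*, between −0.38 and 0.35. The most abundant enzymes and cofactors other than *CTSB* differed little, with log2 fold change 0.14, SE 0.05, edgeR adjusted p = 0.0131 for *CTSD*, −0.06 for *PSAP* and −0.12 for *GRN*. In the proton pump 0 of 5 tested members were called by edgeR and 0 by DESeq2, against 12.4% of all tested genes by edgeR. Among so few genes a count of 0 does not set the pump apart. At an unadjusted p below 0.05 there were 2, *ATP6V1H* (log2 fold change 0.35, SE 0.08, edgeR adjusted p = 0.000266) and *ATP6V0D1* (log2 fold change −0.32, SE 0.06, edgeR adjusted p = 6.45e-06). Both also passed the adjusted p alone, as did 29.4% of all tested genes.

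The MiT factors were followed in each library. *TFEB* (chr6:41683978-41736259, minus strand) was at 38.1 and 33.2 CPM at 0 h, 51.8 and 53.7 CPM in the 96 h control libraries and 53.9 and 55.4 CPM in the CTCF-depleted libraries. Its 96 h libraries lay above 0 h, but the difference was just short of the fold threshold (log2 fold change 0.57, SE 0.08, edgeR adjusted p = 1.49e-08), and the control and depleted groups differed little (log2 fold change 0.05, SE 0.08, edgeR adjusted p = 0.658). *TFE3* (chrX:49028726-49043410, minus strand) was at 21.6 and 21.5 CPM at 0 h, 67.8 and 69.3 CPM in the 96 h control libraries and 100.5 and 99.1 CPM in the CTCF-depleted libraries.

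The 3 groups did not overlap for *TFE3*, which rose in conversion (log2 fold change 1.67, SE 0.08, edgeR adjusted p = 2.1e-25). *MITF*, best known from melanocytes, osteoclasts and mast cells (chr3:69739456-69968336, plus strand), was at 8.36 and 7.35 CPM at 0 h, 27.3 and 24.3 CPM in the 96 h control libraries and 20.5 and 19.1 CPM in the CTCF-depleted libraries. *MITF* rose in conversion (log2 fold change 1.73, SE 0.14, edgeR adjusted p = 3.01e-17), and its depleted libraries lay below the control by less than the fold threshold (log2 fold change −0.38, SE 0.12, edgeR adjusted p = 0.00653). The fourth member of the family, *TFEC*, known from macrophages, was listed among the other genes of the pathway and was at 4.13 and 3.08 CPM at 0 h, 24.7 and 26.8 CPM in the 96 h control libraries and 52.2 and 63.0 CPM in the CTCF-depleted libraries. *TFEC* rose in conversion (log2 fold change 2.86, SE 0.15, edgeR adjusted p = 1.92e-24) and again upon depletion (log2 fold change 1.16, SE 0.09, edgeR adjusted p = 1.11e-15), with no overlap between groups. Per kilobase, *TFEB* (22.6 ± 0.578) and *TFE3* (20.8 ± 0.320) were the higher ones in the control, above *MITF* (5.37 ± 0.443) and *TFEC* (3.87 ± 0.218, mean ± SD, n = 2).

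**Figure D4:**
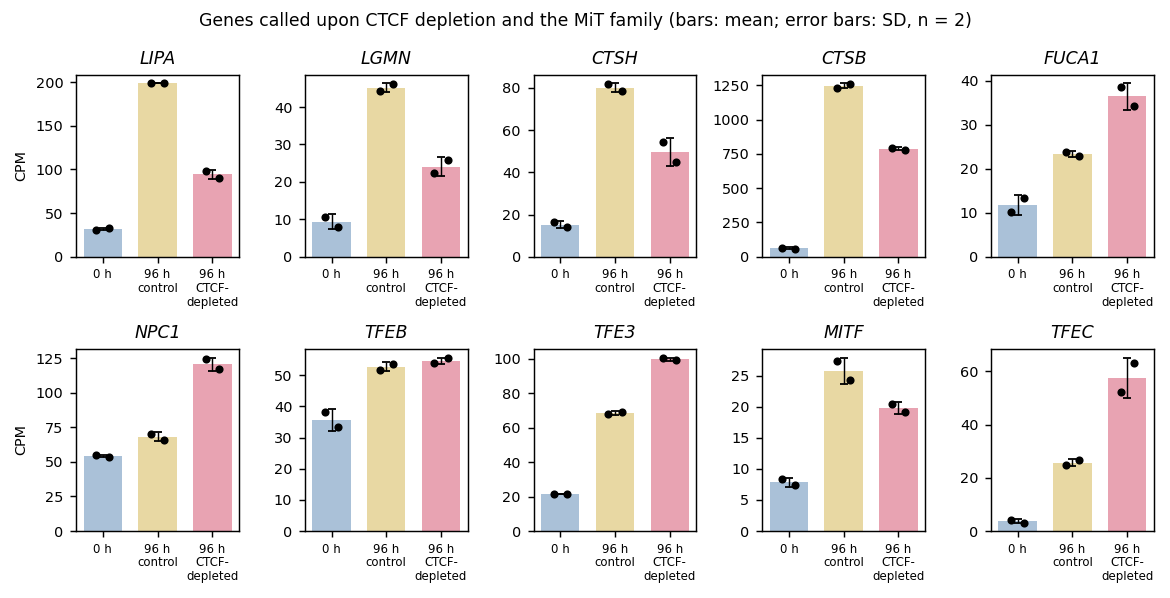
CPM of the 6 genes called upon CTCF depletion, the 3 MiT factors and *TFEC* at 0 h, in the 96 h control and in 96 h CTCF-depleted cells; bars are means, points the 2 libraries and error bars the SD. *LIPA*, *LGMN*, *CTSH* and *CTSB* are highest in the control, and *FUCA1*, *NPC1*, *TFE3* and *TFEC* in depleted cells.

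Against 0 h, the CTCF-depleted cells had 40 of 43 tested genes higher and 0 lower, while 27.2% of all tested genes were higher and 25.2% lower (52.5% together). With the adjusted p alone, 42 of 43 passed, against 71% of all tested genes. In 42 genes both depleted libraries lay above both 0 h libraries, which 44.6% of all tested genes did (87.8% were separate in either direction). The 3 genes not called were *CTSC*, *GAA* and *GUSB*. The median log2 fold change was 1.27, with a range from −0.01 (*CTSC*) to 4.25 (*CTSD*). This comparison shares its 0 h libraries with that of the control, so that the values stand side by side and not as independent results. *NPC1*, *NEU1*, *ATP6V1H* and *TFEB* were called here and not in the control, with log2 fold changes of 1.15, 0.98, 0.73 and 0.62. In the control the same genes had 0.33, 0.55, 0.38 and 0.57. Of these, only *NPC1* was called between the 96 h groups. For *TFEB* the call was lost at 0.51 without 0 h replicate 2. By pattern, 31 of the 43 genes were higher at 96 h with and without CTCF and not called between the 96 h groups, and the 4 that fell upon depletion were still higher than at 0 h.

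Other genes of the same pathway, listed by function, were counted in the same fits, in which 25.4% of all tested genes rose and 22.9% fell in conversion, and 5.41% rose and 7.03% fell upon depletion. Of 25 tested other hydrolases (29 listed), 17 rose and 2 fell in conversion, and 2 rose upon depletion, the cathepsin *CTSO* (log2 fold change 0.83, SE 0.10, edgeR adjusted p = 9.43e-10) and the sialic acid esterase *SIAE* (0.66). Of 24 other membrane proteins, 13 rose and 1 fell in conversion. Upon depletion 1 fell, *SLC11A1*, the metal ion transporter of phagosomes (log2 fold change −0.80, SE 0.15, edgeR adjusted p = 1.16e-05). Of 14 tested pump subunits (17 listed), 5 rose and 1 fell in conversion, and 2 rose upon depletion, *ATP6V1G2* (1.34, from a low level) and *ATP6V0E1* (log2 fold change 0.78, SE 0.08, edgeR adjusted p = 2.24e-12). *ATP6V1G2* was not called by DESeq2 (adjusted p = 0.0197).

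Among 12 genes of enzyme sorting, which include the mannose 6-phosphate receptors and the transferase that makes the tag, 9 rose in conversion. Upon depletion 0 of the 12 were called by edgeR and 0 by DESeq2, against 12.4% of all tested genes by edgeR. Among so few genes a count of 0 does not set this list apart. With the adjusted p alone 4 passed, against 29.4% of all tested genes. At an unadjusted p below 0.05 there were 8, a count without a share of all tested genes beside it. Of 19 genes listed for the control of the MiT factors, with *TFEC* among them, 4 rose and 1 fell in conversion, and the median of 0.07 was near that of all tested genes. The gene that fell was *MTOR*, the kinase itself (−0.63), and the gene that rose upon depletion was *TFEC*, to which DESeq2 added *LAMTOR3* (0.59 by edgeR and 0.61 by DESeq2). All 3 tested cystatins (4 listed), inhibitors of cysteine cathepsins, rose in conversion, and *CST7* fell upon depletion (log2 fold change −1.12, SE 0.11, edgeR adjusted p = 1.32e-12).

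Some values rest on genes that share sequence with a neighbour. Of the 45 genes, 10 share exon bases with another counted gene, 7 of them only on the opposite strand, and the strand setting of the counting is not given in the sources used here. *NPC1* shares 619 bases with *RMC1* (listed as *C18orf8*) on the opposite strand, which was at 45.2 ± 0.515 CPM in the control and 32.1 ± 0.769 CPM upon depletion, the direction opposite to *NPC1*. *LIPA* shares 65 bases with *IFIT2*, which was at 7.34 ± 1.40 and 10.6 ± 0.223 CPM, and 94 bases with *IFIT3*, at 6.37 ± 0.153 and 8.08 ± 0.486 CPM (mean ± SD, n = 2 each). *CTSA* shares 329 bases with *PLTP*, which fell from 7.22 ± 0.777 to 3.09 ± 0.185 CPM. The largest overlap with a counted gene was that of *CTSZ* with *NELFCD* (6136 bases, opposite strand). The overlaps on the same strand were those of *GLB1*, *MCOLN1* and *NPC2*. In conversion *NELFCD* (log2 fold change −0.44) and *RPL36A* (with *GLA*, −0.49) were lower. *SLC26A11* (with *SGSH*, 2.84), *IFIT2* (2.10), *TMPPE* (with *GLB1*, 0.94), *PNPLA6* (with *MCOLN1*, 0.94) and *RMC1* (0.79) were higher. Their part in the results was not tested.

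CTCF is known for marking boundaries between regulatory neighbourhoods. The nearest tested genes that do not overlap the 6 called genes were read out on both sides, a choice made after the values were seen. Of these 12 neighbours 4 were called, against 12.4% of all tested genes, and no test was made of the count. *FDFT1*, a squalene synthase gene 3129 bases from *CTSB*, was lower upon depletion (log2 fold change −0.76, SE 0.05, edgeR adjusted p = 2.73e-19), as was *FAM66D* on the other side (−1.75), which belongs to a family of similar copies, so that its counts are uncertain. *CNR2*, the cannabinoid receptor gene 2225 bases from *FUCA1*, was higher (0.82, SE 0.09, edgeR adjusted p = 8.01e-12). *IFIT5*, 11 bases from the annotated interval of *LIPA*, was also higher (0.90), opposite to *LIPA*. As *LIPA* lies on the minus strand, this edge is on its start side. The interval spans all annotated transcripts of *LIPA* and overlaps exons of *IFIT2* and *IFIT3*, so that the distance depends on the annotation. The other 8 neighbours were not called and ranged from −0.55 (*LAMA3*, beside *NPC1*) to 0.60 (*TMED3*, beside *CTSH*). For *LGMN* both neighbours, *RIN3* (−0.15) and *GOLGA5* (0.0040), were within the threshold.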

How the data were processed

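RNA-seq counts per gene were deposited by the authors as raw, unnormalized values for 6 libraries. Per the methods and the labels, reads from Illumina stranded libraries were aligned to hg38 with STAR 2.6.1d in the nf-core/rnaseq pipeline, and protein-coding exons were counted with featureCounts 2.0.6. The deposited counts also hold noncoding genes, such as *HEXA-AS1*, so that the shares of all tested genes are not limited to protein-coding genes. The annotation release and the strand setting are not given in the sources used here. The 45 genes and the pathway lists were chosen with earlier results of these data known.

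Counts were fitted with edgeR 4.0.16 (R 4.3.3, filterByExpr, TMM scaling, glmQLFit and glmQLFTest over all 6 libraries, group as the only term), and p-values were adjusted by the Benjamini-Hochberg method over 14758 genes, which hold at least 99.9% of the counts of each library. The thresholds for a call were 0.01 for the adjusted p and 0.6 for the log2 fold change in either direction. CPM are counts per 1000000 after TMM scaling. The common biological coefficient of variation was 3.96%, and the 2 libraries of each group differed by 1.73 to 2.76 times the sampling variance, so that none was a copy. The procedure was tested on simulated data.

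Genes given with all library values were those called between the 96 h groups, the MiT factors and, in each other group, the 2 highest in the 96 h control and the 2 with the largest change in conversion. From each pathway list up to 4 genes called upon depletion and *TFEC* were named, and any other gene was chosen after its values were seen. Positions and transcript lengths came from GENCODE 44 (13542 of 14758 tested genes had a position) and promoters from RefSeq. DESeq2 1.42.0, other scalings, filters and thresholds, a replicate block and leaving out each library were alternatives. Floors cover counting error only.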

Additional observations from a re-analysis of the deposited data

How the results depend on the processing

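With 2 libraries per group, depth and replication limit small differences. Under the alternatives that kept the thresholds, 699 log2 fold changes of 18 genes were recomputed. The 18 were chosen as stated above. Other genes near the fold threshold, such as *NAGLU*, *GM2A*, *GAA* and *NEU1*, are not among them. Of the 699 values, 685 kept their direction and their side of the threshold, 9 changed sign, 4 lost and 1 gained a call. Other thresholds are not part of this count, and more calls were lost under the stricter ones, as given below. For the 45 genes, the counts of 36 and 40 higher in the 2 comparisons with 0 h stayed within 1.5 times under every alternative. Between the 96 h groups, the same 6 genes were called with DESeq2, RLE scaling, total library size, both other filters, only the 4 libraries compared and the replicate block. With an adjusted p below 0.05 and no fold threshold, 11 were higher and 10 lower; with a log2 fold change above 1, 0 and 1 (*LIPA*); and with a test against the fold threshold itself (glmTreat), 1 (*NPC1*) and 2 (*LIPA* and *LGMN*). Leaving out 1 library gave 1 to 2 higher and 3 to 4 lower, since *FUCA1* was lost without CTCF-depleted replicate 1 and *CTSH* without CTCF-depleted replicate 2. Over all tested genes, an adjusted p below 0.05 with no fold threshold gave 5500 lower in the control and 5658 lower in depleted cells against 0 h, and 2375 higher and 3330 lower between the 96 h groups; a log2 fold change above 1 gave 2075 lower in the control against 0 h, and 409 higher and 436 lower between the 96 h groups; glmTreat gave 298 higher and 344 lower between the 96 h groups. *TFEB* was called in conversion without 0 h replicate 1 (0.66) and lost its call in depleted cells against 0 h with total library size (0.54) and without 0 h replicate 2 (0.51). Values near 0 changed sign between the 96 h groups: *PSAP* ranged from −0.0903 to 0.0364 with a library left out, above 0 without CTCF-depleted replicate 2, and *LAMP1* was at 0.0179 with total library size, 0.0134 without a filter, 0.0142 with only the 4 libraries and between −0.0161 and 0.0477 with a library left out. Total library size moved the median of all genes in conversion from 0.02 to −0.10. Same-numbered libraries showed no strong shared deviation (r between −0.03 and 0.01), which cannot settle whether they came from the same culture or run. With the replicate block 36 and 0, 2 and 4, and 40 and 0 of the 45 genes were higher and lower in the 3 comparisons. DESeq2 did not call *NAGLU* in conversion (35 of the 45 genes higher). The causes of these shifts were not tested.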
